A study of Mus musculus with 26 samples.

Results

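The serum amyloid A genes of the mouse, Saa1, Saa2, Saa3 and Saa4, were measured in lungs exposed to multiwalled carbon nanotubes and in control lungs. The members were the probes whose RefSeq accession belongs to 1 of these 4 genes. Each gene had 1 probe, so the family held 4 of the 55681 probes of the array. A feature is a gene, or a transcript without a gene symbol, read by 1 probe. Saa1, Saa2 and Saa3 were among the 22950 features tested, after a filter that kept probes well above background in at least 4 of the 5 animals of at least 1 group. Saa4 did not pass this filter, and Saa2 passed it only through the high dose of NM-401.

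The samples were lungs of 25 mice of the MutaMouse strain, which carries a transgene for scoring mutations, in 5 groups of 5. The groups were NM-401 at 128 µg per mouse (NM-401 high), NM-401 at 42.7 µg per mouse (NM-401 low), Mitsui XNRi-7 at 128 µg per mouse (Mitsui high), Mitsui XNRi-7 at 42.7 µg per mouse (Mitsui low) and controls. NM-401 and Mitsui XNRi-7 are multiwalled carbon nanotubes. They were suspended in mouse serum and instilled into the trachea once weekly, 4 times in all, and lungs were taken 56 days after the last dose from animals described as about 12 weeks old. It is not stated whether these amounts were given each week or add up over the 4 weeks. The controls are called vehicle controls in the series design and olive oil gavage animals in the treatment protocol, so it is not settled whether they received serum. Sex is female in the labels and male in the design. RNA came from random sections of whole lung. Each array compared an animal's RNA, labelled with Cy5, with a universal mouse reference RNA, labelled with Cy3, and every level below is the log2 ratio of Cy5 over Cy3.

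Serum amyloid A proteins are small apolipoproteins of the acute phase response. In the liver, interleukin 6, interleukin 1 and tumour necrosis factor raise Saa1 and Saa2, whose proteins travel on high density lipoprotein, and Saa4 is the constitutive member. Saa3 is made mainly outside the liver in mice, by macrophages, adipocytes and epithelial cells, and in lung it is known as a marker of the pulmonary acute phase response to inhaled particles. The proteins attract neutrophils and monocytes through formyl peptide receptors and signal through Toll-like receptors.

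The 4 genes lie together on chromosome 7. Their promoters are shown because Saa1 and Saa3 moved together in these lungs while Saa2, whose promoter is nearly a copy of that of Saa1, stayed close to background. All 4 genes matched in the RefSeq promoter set (build GRCm38.p6), and the 250 bases before the start of 3 of them are printed 5′ to 3′ on the gene's strand, with motif matches in capitals.
Saa3, chr7:46715677-46715926, minus strand: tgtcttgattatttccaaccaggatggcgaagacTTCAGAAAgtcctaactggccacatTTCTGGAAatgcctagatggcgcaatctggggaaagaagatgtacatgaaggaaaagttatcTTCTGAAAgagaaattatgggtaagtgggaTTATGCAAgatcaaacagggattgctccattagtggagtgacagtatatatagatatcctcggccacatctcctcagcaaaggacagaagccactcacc
Saa1, chr7:46742981-46743230, minus strand: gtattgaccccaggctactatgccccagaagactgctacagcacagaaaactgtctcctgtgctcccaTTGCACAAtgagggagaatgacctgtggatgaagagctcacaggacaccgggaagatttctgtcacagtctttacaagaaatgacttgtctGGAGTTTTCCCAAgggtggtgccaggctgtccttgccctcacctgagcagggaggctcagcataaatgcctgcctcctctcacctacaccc
Saa2, chr7:46751583-46751832, plus strand: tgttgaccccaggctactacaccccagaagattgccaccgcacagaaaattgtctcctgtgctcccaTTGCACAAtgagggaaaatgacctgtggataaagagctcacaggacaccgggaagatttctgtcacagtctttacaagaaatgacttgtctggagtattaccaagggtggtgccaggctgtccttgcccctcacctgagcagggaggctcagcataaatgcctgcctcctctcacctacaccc
Capitals mark matches, on either strand, to GG, any 3 bases and TTTCC, a form of the NF-kB motif, or to TTNNGNAA, a form of the C/EBP motif. Another motif, TTCNNNGAA of the STAT factors, had 0 matches in the 4 promoters. Of 32851 mouse promoters of this length, 4.63% held the NF-kB form, 36.8% the C/EBP form and 7.02% the STAT form. Saa3 held 4 matches to the C/EBP form, the nearest starting 99 bases before the gene, and 0 to the NF-kB form. Saa1 held 2 matches to the C/EBP form and 1 to the NF-kB form, GGAGTTTTCC, which starts 91 bases before the gene and overlaps the nearer C/EBP match. Saa1 and Saa2 were identical at 94.8% of aligned positions, and the stretch of Saa2 that lines up with the NF-kB match reads GGAGTATTAC, which shares 8 of its 10 bases. Saa3 was identical to Saa1 at 50.9% and to Saa2 at 50.6%. Saa4, not printed, held 2 matches to the C/EBP form and was identical to the others at 45.5% to 48.9%. A match is a description of letters and shows neither binding nor a cause.

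Transcripts listed as markers of hepatocytes, the liver cells that make Saa1, Saa2 and Saa4, differed between the lung samples. On a list of 8 hepatocyte markers, 5 were tested (Alb, Ahsg, Apob, Cyp2e1 and Ambp), and their mean log2 ratio was 1.11 to 3.32 in NM-401 high, 1.06 to 4.92 in NM-401 low, 0.74 to 3.63 in Mitsui high, 1.29 to 3.39 in Mitsui low and 1.02 to 2.05 in controls. It exceeded the highest control in 2, 3, 2 and 2 animals of the 4 exposed groups. The albumin gene Alb had a Cy5 signal of 30262 in NM-401 low animal 4 and 22120 in animal 3, against 89.5 to 1053 in controls. In NM-401 high animal 3, the highest animal for Saa3 and Saa1, Alb was not above background, while Ahsg had a log2 ratio of 3.13. Cyp2e1 had 4.55 in NM-401 high animal 2 and 4.35 in control animal 2, where Alb had 1.19 and 1.80. In NM-401 low animals 3 and 4 both were high, with 4.61 and 4.71 for Alb and 3.93 and 4.81 for Cyp2e1. The markers thus did not all move together, and their mean need not follow 1 cell type. Ahsg, the gene of the liver protein fetuin A, was called (limma adjusted p under 0.05) in all 4 exposures, with log2 differences of 1.79, 2.42, 1.79 and 1.88, Apob was called in NM-401 low, and the other 3 were called in none. Adipocyte transcripts also stood apart in a few samples. The mean log2 ratio of 5 tested adipocyte markers was 4.79 in control animal 2, 3.96 in NM-401 high animal 2 and 2.14 in control animal 1, against 0.54 to 1.37 in the other animals.

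In exposed lungs Saa3 rose the most of the family and Saa1 rose less, in all 4 exposures. Saa3 was 49.1-fold higher in NM-401 high than in controls, 16.6-fold in NM-401 low, 19.1-fold in Mitsui high and 23.9-fold in Mitsui low. By size of change it ranked 2, 3, 4 and 2 among the 22950 features in these exposures. In whole lung, more RNA per cell and more cells of a type cannot be told apart. All 4 exposures were compared with the same 5 controls.

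Saa3 had log2 ratios of 0.53, 0.76, 2.98, 0.55 and 1.53 in the 5 animals of NM-401 high. In NM-401 low it had -1.01, 0.62, -0.48, -0.79 and 0.19. All animals of both groups lay far above the controls, and the ranges of the 2 doses met only at their edge, where NM-401 low animal 2 exceeded the 2 lowest animals of the high dose. In Mitsui high Saa3 had -0.08, -1.08, -0.97, -0.00 and 1.66. In Mitsui low it had -0.28, -0.29, 0.27, 1.15 and 0.32. The 5 controls had -4.60, -3.97, -4.16, -4.51 and -4.51. No exposed animal overlapped with the controls, and the 4 exposed groups overlapped with each other, with the order of means NM-401 high, Mitsui low, Mitsui high, NM-401 low and, far below, control. The highest animal of all was NM-401 high animal 3, followed by Mitsui high animal 5.

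**Figure D1:**
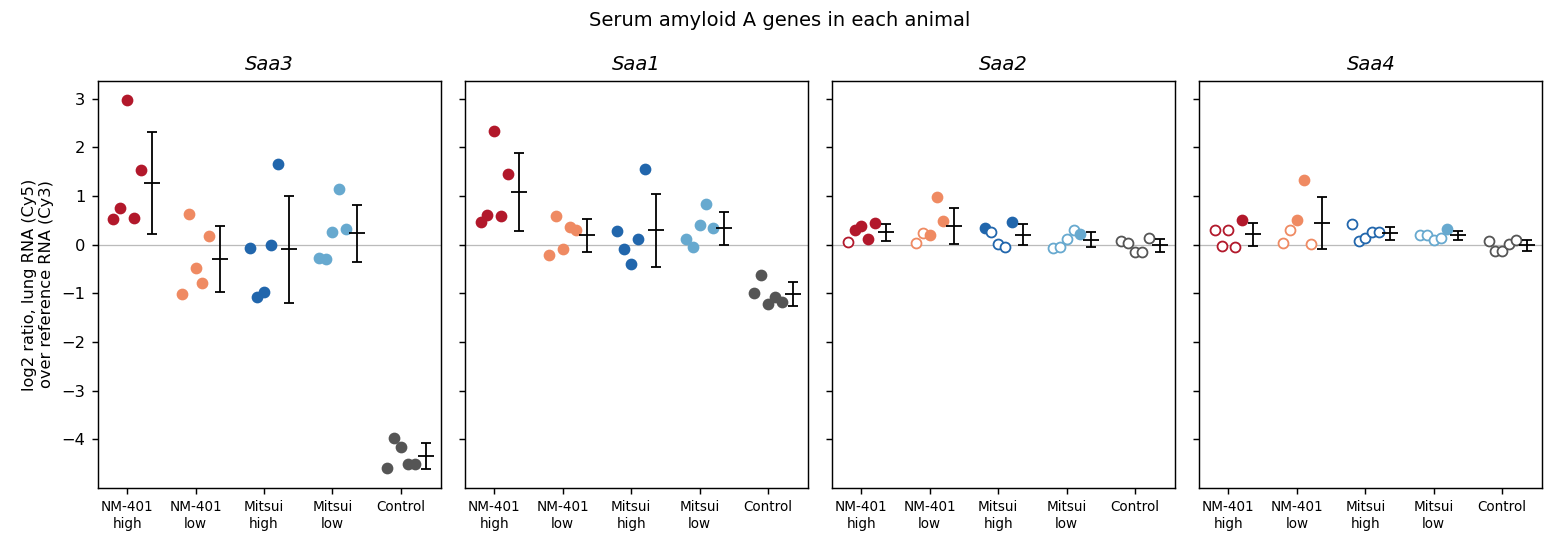
Log2 ratio of lung RNA over reference RNA for Saa3, Saa1, Saa2 and Saa4, 1 point per animal, with group mean and SD (bars, n = 5 each). Filled points are animals with a Cy5 signal well above background on at least 1 of their arrays and open points are not; Saa3 ranges from -1.08 to 2.98 in exposed animals and from -4.60 to -3.97 in controls.

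The mean of Saa3 was 1.27 ± 1.04 in NM-401 high, -0.29 ± 0.68 in NM-401 low, -0.09 ± 1.1 in Mitsui high, 0.23 ± 0.59 in Mitsui low and -4.35 ± 0.27 in controls (SD, n = 5 each). The spread was thus wider in each exposed group than in the controls. The background-subtracted Cy5 signal of Saa3 was 4019.5 to 37232 in NM-401 high, against 133.5 to 271 in controls, while its Cy3 signal from the reference RNA lay between 3639 and 5787.5 in all animals. The probe was well above background in both channels in all 25 animals and saturated in 0.

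Of the 3 members tested, Saa3 and Saa1 were called higher in NM-401 high, where 34.8% of all features were called and 18.4% were called higher. A feature was called at a Benjamini-Hochberg adjusted p under 0.05 in a limma fit over all features. Saa3 was 5.62 ± 0.46 higher in NM-401 high on the log2 scale (SE, limma adjusted p = 5.27e-09), with a 95% interval of 25.3 to 95.3 for the fold. In NM-401 low it was 4.05 ± 0.46 higher (limma adjusted p = 3.75e-06, fold 8.54 to 32.2). In Mitsui high it was 4.25 ± 0.46 higher (limma adjusted p = 8.92e-07, fold 9.81 to 37.0), and in Mitsui low 4.58 ± 0.46 (limma adjusted p = 4.13e-07, fold 12.3 to 46.5). In NM-401 low 16.9% of all features were called and 8.95% called higher, in Mitsui high 23.7% and 12.7%, and in Mitsui low 21.0% and 10.6%. Features with every exposed animal above every control were 12.0% in NM-401 high, 6.53% in NM-401 low, 8.22% in Mitsui high and 8.45% in Mitsui low. Within single slides, the glass carriers of the arrays, the difference of Saa3 was 4.68 to 6.42 for NM-401 high, 3.76 to 4.34 for NM-401 low, 3.19 to 6.21 for Mitsui high and 4.17 to 5.12 for Mitsui low.

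Saa1 had log2 ratios of 0.46, 0.61, 2.33, 0.58 and 1.45 in NM-401 high. In NM-401 low it had -0.22, 0.59, -0.09, 0.37 and 0.30. The same NM-401 high animals, 3 and 5, were the highest as for Saa3. In Mitsui high Saa1 had 0.28, -0.08, -0.39, 0.11 and 1.56. In Mitsui low it had 0.11, -0.05, 0.41, 0.85 and 0.35. The 5 controls had -0.98, -0.62, -1.23, -1.08 and -1.17. Every exposed animal lay above every control, but the gap was narrow, from -0.39 in Mitsui high animal 3 down to -0.62 in control animal 2. The Cy5 signal of Saa1 was 304 to 2386 in NM-401 high, against 82 to 204 in controls.

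Saa1 was 4.29-fold higher in NM-401 high than in controls (95% interval 2.72 to 6.77, limma adjusted p = 1.57e-05). It was 2.30-fold higher in NM-401 low (1.46 to 3.64, limma adjusted p = 0.0111), 2.48-fold in Mitsui high (1.57 to 3.92, limma adjusted p = 0.00395) and 2.55-fold in Mitsui low (1.61 to 4.02, limma adjusted p = 0.00361). With each array centred on its median in place of loess, Saa1 kept similar differences of 1.06, 1.16 and 1.15 on the log2 scale in NM-401 low, Mitsui high and Mitsui low but was no longer called there (limma adjusted p = 0.816, 0.488 and 0.56). Within slides its difference was 0.80 to 2.64 over the 4 exposures.

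The change of Saa3 exceeded that of Saa1 in every exposure. The log2 ratio of Saa3 minus that of Saa1 averaged 0.18 ± 0.27 in NM-401 high, -0.48 ± 0.50 in NM-401 low, -0.39 ± 0.42 in Mitsui high and -0.10 ± 0.26 in Mitsui low, against -3.33 ± 0.25 in controls (SD, n = 5 each). The difference was 3.52, 2.85, 2.94 and 3.23 in that order of exposures. The exact two-sided permutation test over animals gave p = 0.00794 for each, the smallest that its 252 arrangements allow, and 0.00794 after adjustment over the 4 tests. The offset of 50 added to signals in background correction narrows differences of dim probes, and Saa1 was the dimmer of the 2 in the lung channel. In controls both were dim, with Cy5 signals of 82 to 204 for Saa1 and 133.5 to 271 for Saa3. Over 9 alternative ways of processing the difference was 3.32 to 3.59, 2.64 to 2.95, 2.70 to 3.13 and 2.99 to 3.30 in the same order.

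Saa2 stayed close to background. It had log2 ratios of 0.05, 0.29, 0.38, 0.11 and 0.45 in NM-401 high, and 0.04, 0.24, 0.19, 0.99 and 0.49 in NM-401 low. In Mitsui high it had 0.34, 0.25, 0.00, -0.04 and 0.46, and in Mitsui low -0.06, -0.05, 0.11, 0.30 and 0.22. The controls had 0.07, 0.04, -0.15, -0.16 and 0.13. NM-401 low animal 4 stood above all others, and each exposed group overlapped with the controls. Its Cy5 signal was well above background in 4 of 5 animals of NM-401 high, 3 of NM-401 low, 2 of Mitsui high and 1 of Mitsui low, where it was so on 1 of that animal's 2 arrays, and in 0 controls. The Cy3 signal was so in 0 of 25.

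Of the 4 exposures Saa2 was called in NM-401 low (0.40, limma adjusted p = 0.0436) and not in NM-401 high (0.27, limma adjusted p = 0.137), Mitsui high (0.22, limma adjusted p = 0.271) or Mitsui low (0.12, limma adjusted p = 0.6). The 95% intervals of the fold in these 3 were 0.99 to 1.47, 0.96 to 1.42 and 0.89 to 1.32. Their upper ends were 0.55, 0.50 and 0.40 on the log2 scale. The offset in background correction narrows differences of dim probes such as this. Over 12 alternatives Saa2 had 0.26 to 1.53 in NM-401 high, 0.16 to 1.02 in Mitsui high and 0.09 to 0.98 in Mitsui low. The lowest limma adjusted p values there were 0.0725, 0.144 and 0.318. In NM-401 low the alternatives gave 0.15 to 1.98 (limma adjusted p from 0.0185 to 0.637). Because the probe was not well above background in any control, these differences carry no measured control level. In NM-401 low the mean normalised Cy5 signal, which includes 2 animals not above background, was 1.23 times the limit set by the dimmest control signals still above background. The call was lost without NM-401 low animal 4 (0.26, limma adjusted p = 0.137), without animal 5 (0.38, limma adjusted p = 0.0907), without any 1 of controls 1 to 4 (limma adjusted p from 0.0543 to 0.0986) and without the filter on dim probes (limma adjusted p = 0.0622). Saa1 and Saa2 have near-identical transcripts in mice. Probe sequences were not used here, so whether any probe also read another member was not tested. For the probe of Saa1 that includes Saa3, whose Cy5 signal in NM-401 high was 4019.5 to 37232, against 304 to 2386 for Saa1. In controls it was 133.5 to 271, against 82 to 204.

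Saa4, the constitutive member, was well above background in Cy5 in 1 animal of NM-401 high, 2 of NM-401 low, 0 of Mitsui high, 1 of Mitsui low and 0 controls. Its log2 ratio was -0.04 to 0.51 in NM-401 high, 0.02 to 1.33 in NM-401 low, 0.08 to 0.42 in Mitsui high, 0.09 to 0.33 in Mitsui low and -0.13 to 0.09 in controls. NM-401 low animal 4 was again the highest, with a Cy5 signal of 139.5 against at most 15 in controls. In the fit without a filter Saa4 was called in 0 of 4 exposures, with differences of 0.22, 0.45, 0.25 and 0.20 and adjusted p from 0.0863 to 0.548, where 20.3%, 9.11%, 13.1% and 11.6% of features were called in NM-401 high, NM-401 low, Mitsui high and Mitsui low. Before adjustment it was under 0.05 in NM-401 low alone.

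With the dose, Saa3 was 1.57 ± 0.46 higher in NM-401 high than in NM-401 low, a 2.96-fold difference (95% interval 1.52 to 5.75), and missed the threshold (limma adjusted p = 0.0583, where 3.84% of features were called). With slide as a block it was called, at 1.73 (limma adjusted p = 0.0395). It was also called without NM-401 high animal 2 (1.69, limma adjusted p = 0.0472), without NM-401 high animal 4 (1.75, limma adjusted p = 0.0434) and without NM-401 low animal 2 (1.79, limma adjusted p = 0.0344). In the other 7 of 10 fits with 1 animal left out it was not called. Over all 10 the step ranged from 1.14 to 1.79 (limma adjusted p up to 0.192). Without the animals above the highest control in hepatocyte markers it was 1.63 and not called (limma adjusted p = 0.413), with fewer animals. For Mitsui the step was -0.33 ± 0.46 (interval of the fold 0.41 to 1.55, limma adjusted p = 0.999), in a comparison where 0 features were called. The NM-401 step minus the Mitsui step was 1.89 ± 0.66 for Saa3 (limma adjusted p = 0.222, with 0.0305% of features called), so a difference between the steps was not shown. Saa1 had steps of 0.90 ± 0.32 for NM-401 (limma adjusted p = 0.118) and -0.04 ± 0.32 for Mitsui (limma adjusted p = 0.999).

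Between materials at the high dose, Saa3 was 2.58-fold higher in NM-401 high than in Mitsui high (95% interval 1.33 to 5.00, limma adjusted p = 0.133), and Saa1 1.73-fold (95% interval 0.13 to 1.45 on the log2 scale, limma adjusted p = 0.199), in a comparison where 0.793% of features were called. Single animals moved these differences either way. Without Mitsui high animal 5 they were called, at 1.80 for Saa3 (limma adjusted p = 0.0229) and 1.11 for Saa1 (limma adjusted p = 0.0337). Without NM-401 high animal 3 they were 0.94 for Saa3 (limma adjusted p = 0.375) and 0.48 for Saa1 (limma adjusted p = 0.508). At the low dose Saa3 was 0.69 times as high in NM-401 low as in Mitsui low (0.36 to 1.35, limma adjusted p = 0.966), and 0 features were called. Saa2 was called in 0 of the comparisons between exposed groups.

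**Figure D2:**
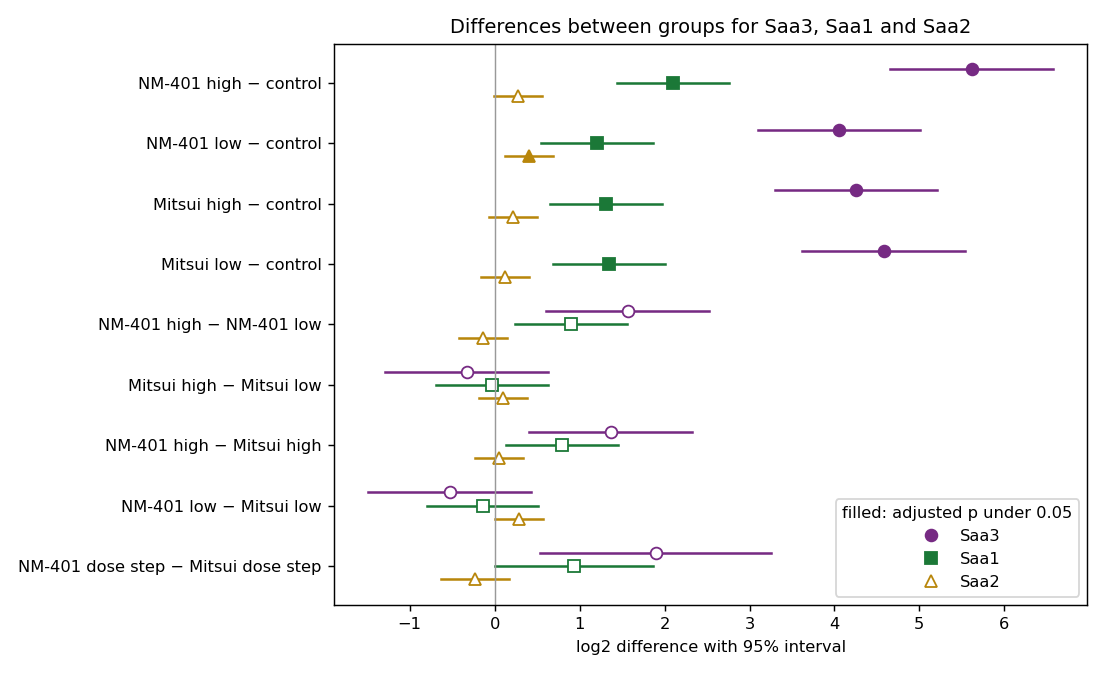
Log2 difference between groups (x axis) with its 95% interval for Saa3 (circles), Saa1 (squares) and Saa2 (triangles) in 9 comparisons, filled where the limma adjusted p was under 0.05. Saa3 lies between 4.05 and 5.62 in the 4 comparisons with controls, and no comparison between exposed groups is filled.

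Saa3 and Saa1 varied together among exposed animals. Controls lie apart, so the relation is given over the 20 exposed animals, where Pearson's r was 0.95 and Spearman's rho 0.94 (permutation p = 1e-05 for each, the smallest that 100000 permutations allow, and 8e-05 and 4e-05 after adjustment over 8 relations). Without the 2 animals farthest from the median of Saa3, NM-401 high 3 and Mitsui high 5, r was 0.91 (n = 18). It was 0.96 with slide means removed and 0.94 with group means removed. Both probes sit on the same arrays and share the reference RNA, and whether the probe of Saa1 also read Saa3 was not tested.

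By Pearson correlation over all 25 animals, the genes most like Saa3 among 14837 with a symbol were Lap3, an aminopeptidase, at 0.96, Trem2, a lipid-sensing receptor of macrophages, at 0.96, and Gch1, which makes tetrahydrobiopterin, at 0.96. Next came the chemokine genes Ccl3 and Ccl2, both at 0.96, Arpc1b of the actin-branching complex at 0.96, the protease gene Adam8 at 0.96 and Ms4a7 of macrophages at 0.96. With group means removed the 8 values lay between 0.63 for Ms4a7 and 0.80 for Arpc1b. The gene most like Saa1 was Saa3, at 0.93, followed by Pla1a, a phospholipase, at 0.93 and Car13, a carbonic anhydrase, at 0.93. Saa1 ranked 68 for Saa3 over all 25 animals, where the gap between exposed and control animals enters r. With group means removed, r of Saa1 with Saa3 was 0.93, above the values of the 8 genes. Those 8 were chosen by r over all 25 animals, and genes were not ranked with group means removed. The genes most like Saa2 were Gckr, the glucokinase regulator of liver, at 0.84, Hgfac, which activates hepatocyte growth factor, at 0.83 and Etnk2, an ethanolamine kinase, at 0.82. With group means removed these had 0.79, 0.84 and 0.74. Saa2 was well above background in 10 of 25 animals in Cy5 and 0 in Cy3, and NM-401 low animal 4 stood above all others.

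Saa4 was correlated with the hepatocyte markers by both measures, Saa2 by Pearson's r alone, and for Saa3 and Saa1 no correlation was detected. Saa4 was well above background in Cy5 in 4 of 25 animals and Saa2 in 10, and both in 0 in Cy3. Many of their log2 ratios thus set signals near background against each other. Over the 20 exposed animals r with the marker mean was 0.57 for Saa2 (permutation p = 0.00922, adjusted 0.0148; Spearman 0.38, p = 0.0988, adjusted 0.158) and 0.73 for Saa4 (permutation p = 0.00026, adjusted 0.000693; Spearman 0.60, p = 0.00686, adjusted 0.0137). Without NM-401 low animals 3 and 4 r was 0.36 and 0.49, so much of both relations rested on those animals. For Saa3 r was -0.26 (permutation p = 0.259, adjusted 0.346; Spearman -0.18, p = 0.458, adjusted 0.61) and for Saa1 -0.13 (permutation p = 0.576, adjusted 0.659; Spearman -0.08, p = 0.73, adjusted 0.835). With slide means removed r was 0.60 for Saa2, 0.76 for Saa4, -0.30 for Saa3 and -0.20 for Saa1.

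With the 9 animals above the highest control left out, a choice made after seeing the data, the fit held 3, 2, 3 and 3 animals of NM-401 high, NM-401 low, Mitsui high and Mitsui low and all 5 controls. Saa3 was then 54.9-fold higher in NM-401 high, 17.8-fold in NM-401 low, 23.9-fold in Mitsui high and 26.4-fold in Mitsui low, and called in all 4. Saa1 was 4.57, 2.30, 2.72 and 2.67-fold higher in these exposures and called in all but NM-401 low (limma adjusted p = 0.15). Saa2 had a difference of 0.15 in NM-401 low (limma adjusted p = 0.58).

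**Figure D3:**
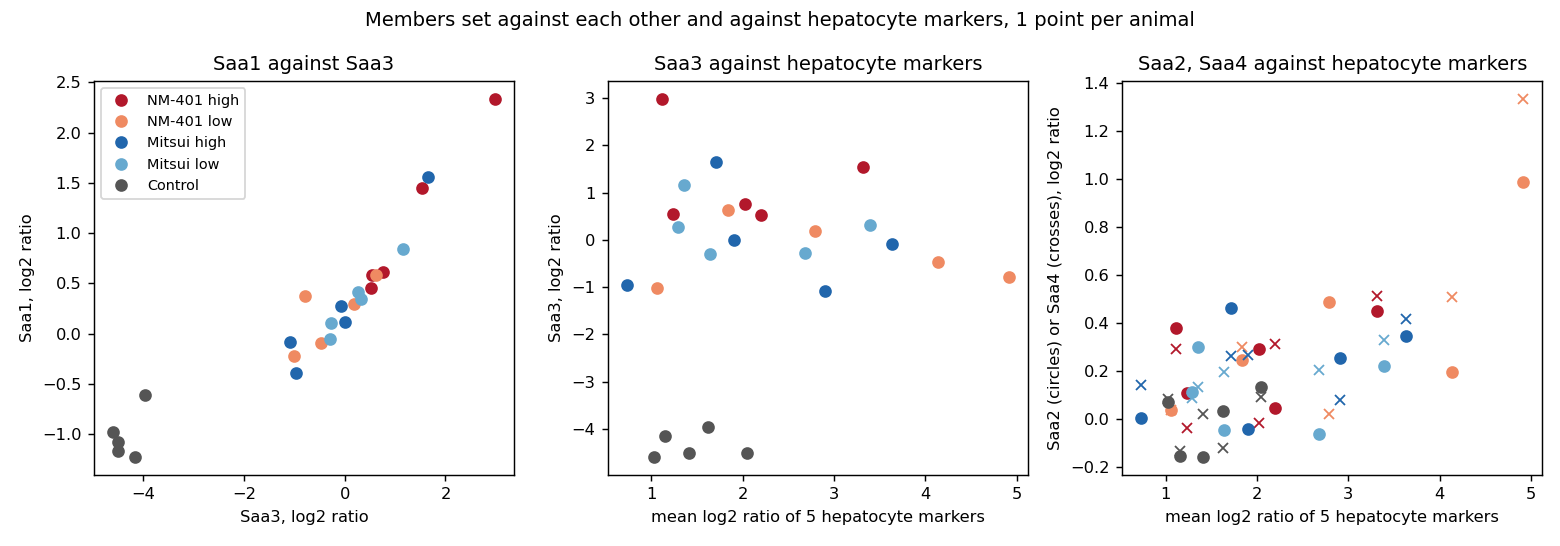
Log2 ratios by animal, coloured by group: Saa1 against Saa3 (left), Saa3 against the mean of 5 hepatocyte markers (middle), and Saa2 (circles) and Saa4 (crosses) against that mean (right). The points of the left panel rise together (r = 0.95 over 20 exposed animals), and the 2 highest points of the right panel are both NM-401 low animal 4.

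Markers of other cells that make or answer serum amyloid A moved as follows, and their part in the result was not tested. Of 8 tested markers of monocyte-derived macrophages, 6 rose in NM-401 high, 6 in NM-401 low, 5 in Mitsui high and 6 in Mitsui low. Of all features 18.4%, 8.95%, 12.7% and 10.6% were called higher, and 12.0%, 6.53%, 8.22% and 8.45% had every exposed animal above every control. The largest rises were those of Trem2, at 4.65, 3.48, 3.79 and 3.62, and Ms4a7, at 4.45, 3.17, 3.06 and 3.36 on the log2 scale. Mrc1 had 0.77, 0.68, 0.46 and 0.79 and was not called in Mitsui high. Ccr2 had 0.34, 0.03, -0.11 and 0.03 and Itgam 0.09, -0.03, -0.01 and 0.04, with neither called in any exposure. The mean log2 ratio of the 8 markers was 3.17 to 3.69 in NM-401 high, 2.65 to 3.29 in NM-401 low, 2.53 to 3.20 in Mitsui high, 3.00 to 3.32 in Mitsui low and 1.46 to 1.75 in controls, with no overlap with controls. Its r with Saa3 over the 20 exposed animals was 0.78 (permutation p = 5e-05, adjusted 2e-04; Spearman 0.82, p = 1e-05, adjusted 4e-05; 0.74 without the 2 farthest animals, 0.85 with slide means removed and 0.65 with group means removed). Trem2 and Ms4a7 are in this list and among the genes most like Saa3. Of 8 alveolar macrophage markers 5 fell in NM-401 high, 0 in NM-401 low, 2 in Mitsui high and 1 in Mitsui low. Of all features 34.8%, 16.9%, 23.7% and 21.0% were called in either direction. The mean of these alveolar markers had r = -0.72 with Saa3 (permutation p = 0.00052, adjusted 0.00104, and Spearman -0.70, p = 0.00096, adjusted 0.00256). This r was -0.58 without the 2 farthest animals and -0.75 with slide means removed.

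Of 7 tested neutrophil markers 1 rose in NM-401 high, 0 in NM-401 low, 1 in Mitsui high and 1 in Mitsui low, where 18.4%, 8.95%, 12.7% and 10.6% of all features were called higher, and r with Saa3 was 0.08 (permutation p = 0.723; Spearman 0.02, p = 0.947; r = 0.29 without the 2 farthest animals and 0.09 with slide means removed). Of 5 tested adipocyte markers Cidec, a lipid droplet gene, was called, and it fell in all 4 exposures. The list medians were -0.79, -1.35, -1.21 and -1.32, with control animals 1 and 2 and NM-401 high animal 2 far above the rest as given above. Control animal 2 was also the highest control for Saa3 and Saa1, and without it Saa3 was 5.71, 4.15, 4.35 and 4.67 higher and Saa1 2.20, 1.30, 1.41 and 1.45 higher, all called. Of 6 alveolar type 2 markers 3, 1, 3 and 4 rose in the 4 exposures, none of 5 mesothelial markers rose, and 3, 0, 2 and 0 of these fell. In either direction 34.8%, 16.9%, 23.7% and 21.0% of all features were called. Of 4 tested club cell markers Muc5b rose in each exposure, and Cyp2f2 and Cbr2 fell in NM-401 high. The lung genes Sftpc, Scgb1a1, Ager and Cldn18 were above background in all 25 animals and called in 0 exposures.

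Among cytokines known to induce these genes, 8 of 12 were tested, and 5 rose in NM-401 high and 4 in each other exposure, with none lower, against 18.4%, 8.95%, 12.7% and 10.6% of all features called higher. The list median was 0.71, 0.49, 0.48 and 0.45 in NM-401 high, NM-401 low, Mitsui high and Mitsui low, against -0.00 over all features in each exposure. With median centring in place of loess 4, 0, 0 and 0 were called higher, with medians of 0.90, 0.45, 0.40 and 0.40. Il6, the main inducer in liver, rose by 2.16 ± 0.21, 1.34 ± 0.21, 1.15 ± 0.21 and 1.20 ± 0.21 (SE, log2 scale). Tnf rose by 1.38, 0.80, 0.85 and 0.81, and Il33, an epithelial alarmin, by 2.03, 1.18, 1.32 and 1.59. Csf2, a growth factor of macrophages, rose by 0.85, 0.96, 0.81 and 1.01. Osm, of the interleukin 6 family, rose by 0.46 in NM-401 high and had 0.18, 0.04 and 0.06 in the other exposures, not called. Il1b had 0.56, 0.06, 0.12 and -0.05 and Ifng 0.13, -0.03, -0.25 and -0.07, and neither was called.

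Genes that regulate the Saa promoters changed in both directions. Of 17 tested, 7 rose and 4 fell in NM-401 high, 5 and 2 in NM-401 low, 5 and 3 in Mitsui high and 5 and 3 in Mitsui low, in exposures where 34.8%, 16.9%, 23.7% and 21.0% of all features were called. The medians were -0.00, -0.03, -0.05 and -0.01. With median centring 1, 0, 0 and 0 were called higher and none lower, and the medians were 0.26, -0.19, -0.26 and -0.21. Of all features 1064, 62, 121 and 74 were then called. Socs3, the feedback inhibitor of interleukin 6 signalling, rose by 0.92, 0.63, 0.66 and 0.75. Nfkb2 rose by 0.70, 0.39, 0.34 and 0.46 and Relb, its partner in the NF-kB family, by 0.64, 0.56, 0.37 and 0.36. Elf3, an epithelial factor, rose by 0.72, 0.66, 0.69 and 0.73. Il6ra, the interleukin 6 receptor, fell by 0.70, 0.42, 0.51 and 0.38. Cebpb had -0.01, -0.13, -0.07 and 0.02 and Maz -0.00, 0.01, 0.02 and -0.01, with neither called.

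Of the genes for receptors of serum amyloid A, 12 of 13 were tested, and 5 rose and 2 fell in NM-401 high, 4 and 1 in NM-401 low, 3 and 1 in Mitsui high and 4 and 1 in Mitsui low, against 34.8%, 16.9%, 23.7% and 21.0% of all features called. The medians were 0.15, 0.02, 0.11 and 0.07. With median centring 2, 1, 1 and 1 were called higher, with medians of 0.37, -0.11, -0.08 and -0.14. Of all features 1064, 62, 121 and 74 were called in that setting. Cd14, the co-receptor of Toll-like receptors, rose by 2.87 ± 0.19, 2.26 ± 0.19, 2.09 ± 0.19 and 2.27 ± 0.19, and Tlr2 by 1.65, 1.08, 1.25 and 1.38. Scarb2, of the scavenger receptor family, rose by 0.79, 0.38, 0.45 and 0.51. Tlr4 rose by 0.55 in NM-401 high, 0.26 in NM-401 low and 0.32 in Mitsui low and had 0.21 in Mitsui high. Its partner Ly96 rose by 0.88 in NM-401 high and had 0.24, 0.43 and 0.32 in NM-401 low, Mitsui high and Mitsui low, with 0.43 just short of the threshold (limma adjusted p = 0.0508). Fpr2, the formyl peptide receptor for serum amyloid A, had -0.22, -0.08, -0.32 and -0.28, and Selenos had -0.01, -0.08, 0.05 and 0.10, with neither called. The genes that fell, named after their values were seen, were Fpr1 in NM-401 high and the lipid receptor Cd36 in all 4 exposures.

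Chemokines of neutrophils and monocytes that serum amyloid A can induce rose with it. Of 10 listed, 8 were tested, and the same number, 7, rose in each of the 4 exposures, with medians of 3.00, 2.04, 2.10 and 2.35, where 18.4%, 8.95%, 12.7% and 10.6% of all features were called higher. With median centring 7, 3, 3 and 4 were called, with medians of 3.14, 1.83, 1.87 and 2.07. The monocyte attractant Ccl7 rose by 4.74 ± 0.43, 3.47 ± 0.43, 3.39 ± 0.43 and 3.60 ± 0.43, and Ccl2 by 4.24, 2.76, 3.07 and 3.01. Ccl4 rose by 3.32, 2.18, 2.29 and 2.46 and Ccl3 by 2.67, 1.72, 2.25 and 2.23. The neutrophil attractant Cxcl5 rose by 3.58, 4.06, 1.95 and 3.03. Cxcl3, of the same kind, was well above background in 0 controls and at least 1.67-fold higher in NM-401 high, 1.37-fold in NM-401 low, 1.15-fold in Mitsui high and 1.28-fold in Mitsui low (limma adjusted p = 2.62e-06, 0.00319, 0.0338 and 0.00465). Such a fold sets the mean normalised Cy5 signal of the brighter group against the dimmest signals still above background in the other, or the probe's own where higher, and is open to dye bias because no dyes were swapped. The receptor gene Cxcr2 had -0.30, -0.21, -0.16 and -0.28 and was not called.

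**Figure D4:**
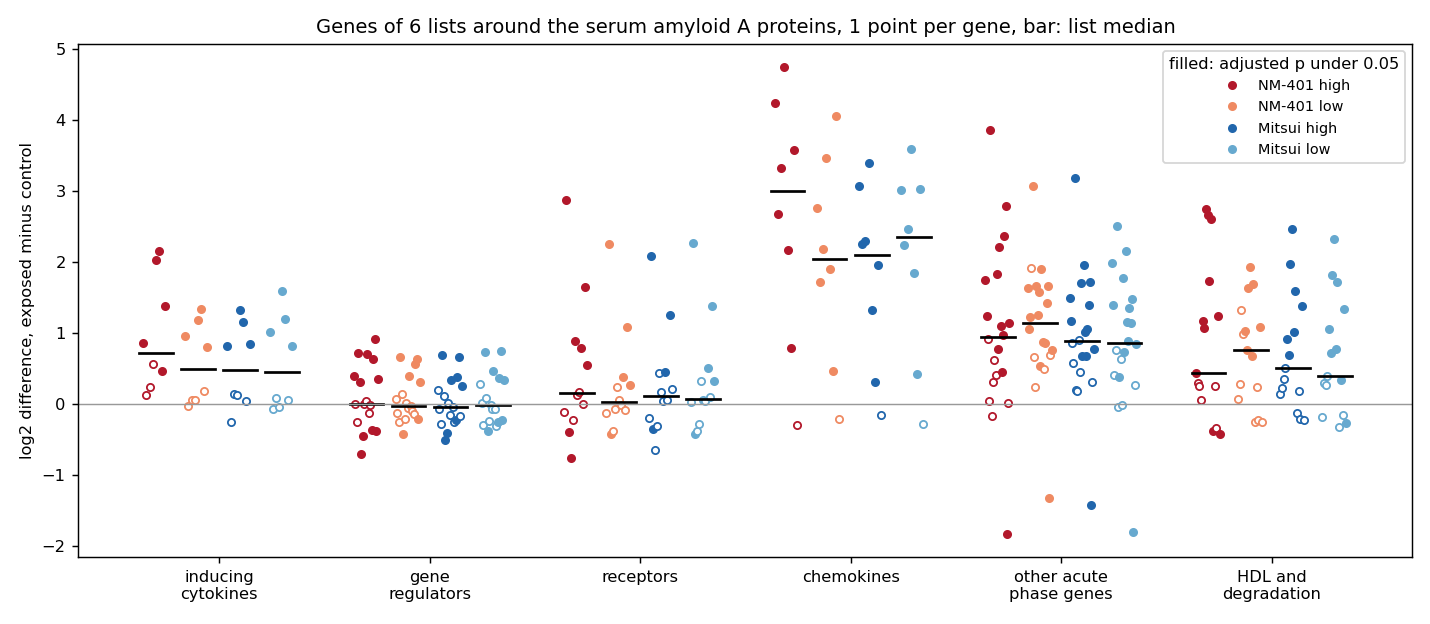
Log2 difference from controls (y axis) of the tested genes of 6 lists, 1 point per gene and exposure, filled where the limma adjusted p was under 0.05, with the list median as a bar. Chemokine medians lie between 2.04 and 3.00, and those of gene regulators between -0.05 and -0.00.

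Other acute phase genes rose in 12 of 20 tested in NM-401 high, 14 in NM-401 low, 12 in Mitsui high and 13 in Mitsui low, with medians of 0.94, 1.14, 0.88 and 0.86, against the same shares of all features called higher as for the chemokines. With median centring 8, 1, 2 and 0 were called higher, with medians of 1.06, 1.00, 0.72 and 0.68, where 1064, 62, 121 and 74 of all features were called. Lcn2, which binds bacterial siderophores, rose by 2.21 ± 0.15, 1.90 ± 0.15, 1.96 ± 0.15 and 2.15 ± 0.15. The complement gene C3 rose by 1.75, 1.63, 1.50 and 1.99, the protease inhibitor gene Itih4 by 1.83, 1.58, 1.71 and 1.77, the copper carrier gene Cp by 1.24, 1.06, 1.16 and 1.39 and Lbp, which binds endotoxin, by 0.78, 0.54, 0.68 and 0.73. The fibrinogen gene Fgb had 0.04, 1.91, 0.57 and 0.76 with a SE of 0.82 and was not called, nor was Serpina3m. Orm3, an orosomucoid gene named after its values were seen, was the only member that fell, by 1.84, 1.33, 1.42 and 1.81. Several of these genes are also liver genes, and the hepatocyte markers above differed between the same samples. Without the animals high in hepatocyte markers 12, 10, 13 and 12 of the 20 were called higher and 2, 1, 1 and 1 lower. Their medians were then 0.85, 0.75, 0.76 and 0.91, with fewer animals. The share of all features called higher in that fit is not given here. The part of liver transcripts in these rises was not tested.

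Genes for carriage on lipoprotein and for degradation rose in 8 of 15 tested in NM-401 high, 7 in NM-401 low, 7 in Mitsui high and 8 in Mitsui low, with medians of 0.44, 0.76, 0.51 and 0.39, against the same shares of all features called higher as for the chemokines. With median centring 5, 0, 2 and 2 were called higher, with medians of 0.66, 0.47, 0.39 and 0.33, where 1064, 62, 121 and 74 of all features were called. Those that rose included the cathepsins, lysosomal proteases that can cut serum amyloid A. Ctsd rose by 2.67 ± 0.23, 1.93 ± 0.23, 2.47 ± 0.23 and 2.33 ± 0.23, Ctsb by 2.74, 1.64, 1.98 and 1.82, Ctsl by 1.73, 0.67, 1.02 and 0.78 and Ctss by 2.60, 1.69, 1.60 and 1.71. The secreted phospholipase gene Pla2g2d rose by 1.24, 1.09, 1.37 and 1.34. The lipoprotein genes Apoa1, with 0.26, 1.33, 0.35 and 0.27, and Apoa2, with 0.05, 0.99, 0.51 and 0.39, were not called in the fit of all animals. Without the 9 animals high in hepatocyte markers, Apoa2 had -0.46 in NM-401 high (limma adjusted p = 0.044). These animals were left out by liver transcripts and from the exposed groups alone. That fit thus cannot tell a change of Apoa2 from the choice of animals. The phospholipid transfer gene Pltp fell by 0.42 in NM-401 high and by 0.28 in Mitsui low. The endothelial lipase gene Lipg was well above background in 0 animals of NM-401 high, against 5 controls. Its difference there was -0.38 ± 0.12 on the log2 scale (SE, limma adjusted p = 0.0161), with no measured level in NM-401 high. Both were named after their values were seen.

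The neighbours of the cluster on chromosome 7 were also read, 3 protein-coding genes on each side by RefSeq order, chosen after the data were seen. Ldha, of lactate production, rose by 0.61, 0.45, 0.42 and 0.44, and Sergef rose by 0.25 in NM-401 high and had 0.06, 0.13 and 0.05 in the others, not called. Saal1, Hps5, Gtf2h1 and Tph1 were called in 0 exposures, with differences from -0.08 to 0.26.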

How the data were processed

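Total RNA of 25 lungs was read on 26 two-colour Agilent arrays on 4 slides, and 1 animal of Mitsui low had 2 arrays, which were averaged. Per the file headers, Agilent Feature Extraction 11.0.1.1 made the deposited files, which give median spot and local background intensities, flags of 0 or 1 and a log10 ratio of Cy5 over Cy3. The authors' deposited value table holds normalised log2 ratios, whose method is not given in the sources used here. Its columns correlated at 0.993 to 0.999 with the log2 ratios computed here for the same arrays and at 0.918 to 0.943 with the deposited scanner ratios, with slopes of 1.01 to 1.08 and medians of -0.04 to -0.02.

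Intensities were corrected with normexp (offset 50) and normalised by loess within arrays in limma 3.58.1 (R 4.3.3). Control and outlier spots were left out, and genes were named by RefSeq accession (GRCm38.p6). Of several probes of a gene the brightest was used. Group means of 22950 features were fitted with lmFit and eBayes and adjusted by Benjamini-Hochberg, with a threshold of 0.05. All p-values named as limma or adjusted p come from this fit, unless a permutation test is named. In the lung channel 47.2% to 63.2% of probes exceeded background by the scanner's flag. The number of animals limits the precision.

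Same-numbered animals did not deviate together (median correlation -0.00, 50 pairs, against -0.01 for 200 pairs of different numbers), so the numbers were not taken as pairs. The procedure was tested on simulated data. Alternatives were no background correction, median centring, Feature Extraction ratios, the value table, scaling between arrays, no filter, the mean over probes, slide and replicate blocks, an intensity trend, the first array alone of the repeated animal, and each animal left out. The members and lists were chosen with earlier results of these data known. Named genes are, per list, the 5 with the smallest and the 2 with the largest p in NM-401 high, plus the 8 most like Saa3 and the 3 most like each other member.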

Additional observations from a re-analysis of the deposited data

Results flagged for a closer look

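Single animals stood far from the others of their group in the mean log2 ratio of a marker list, by Dixon's gap test at the 95% level. For adipocyte markers these were NM-401 high animal 2 at 3.96, NM-401 low animal 3 at 1.37, Mitsui low animal 1 at 1.13 and control animal 2 at 4.79. For the lung genes Sftpc, Scgb1a1, Ager and Cldn18 it was Mitsui low animal 1 at 6.26. Chance gives such a gap in about 1 of 20 groups, and 65 groups of values were examined, of which 20 were of the serum amyloid A genes themselves, with none such.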

How the results depend on the processing

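The rises of Saa3 in all 4 exposures and of Saa1 in NM-401 high were called under every alternative run, and no called difference of a member changed sign. Of the values recomputed, 830 kept their side of the threshold and direction, 59 moved, 13 were weaker and 6 stronger. With median centring, which shifted the median of all features by 0.17, -0.11, -0.13 and -0.14 in NM-401 high, NM-401 low, Mitsui high and Mitsui low, the features called were 1064, 62, 121 and 74, against 7976, 3890, 5447 and 4809. It called 8 in the NM-401 dose step, against 881, 0 between materials at the high dose, against 182, and 0 for the difference of steps, against 7. Saa1 was then 1.06, 1.16 and 1.15 in NM-401 low, Mitsui high and Mitsui low and Saa2 0.45 in NM-401 low, none called, and 79 of 168 values of named genes lost their call. With no filter, Saa2 in NM-401 low was 0.40 and not called, and 94 features were called between materials at the high dose and 3 for the difference of steps. Slide as a block called Saa3 in the NM-401 step at 1.73, with 1562 features there, 15 in the Mitsui step, 510 between materials at the high dose and 121 for the difference of steps. The replicate block called 1 feature in the Mitsui step and 1 for the difference of steps and changed no call of a member. Feature Extraction ratios gave 1.53 for Saa2 in NM-401 high, against 0.27, and did not call it (limma adjusted p = 0.0725). They called 39 features between materials at the high dose, 1 at the low dose and 16 for the difference of steps. For that difference no background correction called 11, the authors' deposited values 14, scaling between arrays 2 and an intensity trend 2, and scaling called 97 between materials at the high dose. Without the animals high in hepatocyte markers, chosen after seeing the data, Saa1 in NM-401 low was 1.20 and Saa2 0.15, neither called. The features called were then 1998 in NM-401 low, 0 in the NM-401 step, 1 between materials at the high dose and 0 for the difference of steps, with fewer animals. The cause of the other changes was not tested.

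With single animals left out, Saa2 in NM-401 low ranged from 0.26 to 0.49 and Saa3 in the NM-401 step from 1.14 to 1.79. Between materials at the high dose Saa3 ranged from 0.94 to 1.80 and Saa1 from 0.48 to 1.11. The features called ranged from 183 to 1232 in the NM-401 step, from 0 to 3 in the Mitsui step, from 6 to 913 between materials at the high dose and from 1 to 197 for the difference of steps. Saa2 and Saa4 lay near background, so their differences are little determined by these arrays.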
